A study of Mus musculus with 4 samples.

Results

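The genes described here are 10 feedback inhibitors of the mitogen-activated protein (MAP) kinase pathways: 6 dual-specificity phosphatases (Dusp1, Dusp2, Dusp4, Dusp5, Dusp6 and Dusp10), 2 Sprouty proteins (Spry1 and Spry2) and 2 Sprouty-related proteins (Spred1 and Spred2). They were taken by gene name from the arrays, where they have 16 probes among the 56605 probes that are not controls, and they are 10 of 36942 gene names. All 16 probes are reported, and all passed the filter on dim probes. The 4 Agilent arrays hold RNA from regulatory T (Treg) cells that were differentiated from mouse T cells in vitro. Of these, 2 came from Junbfl/fl control mice and 2 from Junbfl/flCd4-Cre mice, where the Cd4 promoter drives Cre recombinase in T cells. Both genotypes are on the C57BL/6 strain and carry the floxed Junb alleles, so the controls differ in the labels only by having no Cre. Naive CD4 T cells were sorted and grown for 3 days with antibodies to CD3 (1 μg/ml, fixed to the plate) and CD28 (0.5 μg/ml), with IFN-γ and IL-4 blocked (5 μg/ml each) and with human TGF-β1 at 5 ng/ml. The labels give neither age nor sex. They do not say if each array had its own mouse or culture either, and the p-values below therefore weigh differences against a spread between arrays that may be purely technical.

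MAP kinases are switched on by phosphorylation of a threonine and a tyrosine, and dual-specificity phosphatases switch them off by removing both phosphates. Sprouty and Spred proteins act further up, where they restrain the activation of RAS and RAF below receptors. Many of these inhibitors are themselves induced by the pathway they restrain, in T cells after engagement of the T cell receptor, and the same kinases control the synthesis and activity of Fos and Jun proteins, which pair to form the transcription factor AP-1. JunB, the product of the deleted gene, is an AP-1 subunit.

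Junb itself is given first, as a check on the labels. Its probe A_55_P2011106 (chromosome 8, 87501881 to 87501940) gave processed signals (background-subtracted intensities) of 47.2 and 31.7 in control RNA. On the arrays labelled Junbfl/flCd4-Cre it read 4.11 and 1.47, neither of them well above background. It was at least 5.71-fold lower there, with the floor set at the lowest signal well above background on each array (limma adjusted p = 0.0396). That call was lost with quantile normalization (limma adjusted p = 0.0517) and with normexp background before it (0.0699). The call was also lost with no filter (0.102) and without any 1 array, settings in which no probe at all was called. The brightest Junb probe read 9791 and 9072 in control RNA, then 1053 and 10078, so array 2 labelled Junbfl/flCd4-Cre does not follow its label by that probe, and the genotypes are called by their labels throughout. No source used here says which part of Junb is floxed, and probes beyond that part are no check on the label. The label on extraction names colon, although other labels describe Treg cells grown in culture. All 7 measured T cell markers were well above background on all 4 arrays, as were 3 of 8 colon epithelium markers (Lgals4, at 269 to 393, Epcam and Krt18). Of the other 5, Cdh1, Krt20, Muc2 and Vil1 were not so on any array, and Krt8 was so on both Junbfl/flCd4-Cre arrays and 1 control. Marker levels nevertheless moved with genotype in every list but colon epithelium, whose sums overlapped. Summed over each list, as multiples of the array's 75th percentile, T cell markers (7 of 8 on the array) read 572 to 584 on controls and 396 to 419 on the others, myeloid markers (8 of 8) 17.8 to 26.2 and 32.4 to 61.3, B cell markers (7 of 7) 1.44 to 3.64 and 4.94 to 7.38, and colon epithelium markers (8 of 8) 2.24 to 3.19 and 3.15 to 3.76. Stromal markers (8 of 8) read 43.1 to 65.7 and 7.41 to 9.997, most of it Vim, which T cells also express and which fell by 2.82 on the log2 scale. The other 4 stromal markers that passed the filter went the opposite way, with Dcn (3.18) and Col1a1 (2.61) called higher and Col1a2 (1.14) and Pecam1 (0.47) not called, and Pdgfra and Pdgfrb were not well above background on any array. CD8 T cell markers (2 of 2) read 2.51 to 2.92 and 3.69 to 4.19. Adgre1, a macrophage marker, was not well above background on any array either. Bright genes weigh most in such sums. Of the T cell markers, Thy1 (-0.98) and Cd2 (-1.33) were called lower. Foxp3 (-1.20), Cd4 (-0.54), Lck (-0.27), Cd3e (-0.15) and Cd3g (0.21) were not called. All 6 myeloid markers that passed the filter were higher, and none was called. The brightest of them, Itgam (0.93), overlapped between genotypes. The part of these shifts in the results below was not tested, and in such bulk RNA fewer cells of a type and less RNA per cell cannot be told apart.

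Most feedback inhibitors differed little between the 2 genotypes when arrays were scaled to their 75th percentiles, and how little depended on that scaling. Of the 16 probes, 12 differed by less than 0.5 on the log2 scale, against 51.2% of the 33606 probes tested. With quantile normalization 9 did, against 56.8% of all probes, and with normexp background before it 13 did, against 83.3%. Both counts are near the share over all probes. With the arrays' medians equalized instead, 3 did (Dusp1, Dusp10 and Spry1), against 31.8% of all probes, and the median over the 16 probes was -0.67, beside -0.54 over all probes. Only 1 probe, for Spry2, was called changed (limma, Benjamini-Hochberg adjusted p under 0.05 over all probes), while 6.78% of all probes were called, so the count is near that background. It was a call for a higher signal, which 5.53% of all probes had, and no probe was called lower, as 1.25% were. Median scaling called 4 of the 16, 1 higher (the same Spry2 probe) and 3 lower (the other Spry2 probe, 1 of Spred1 and 1 of Spred2). At an unadjusted p under 0.05 there were 4 (background 38.2%), belonging to Dusp1, Dusp10 and both Spry2 probes. The median log2 difference over the 16 probes was -0.13, beside -0.01 over all probes, with 11 probes negative (50.7% of all probes) and 5 positive. With each gene read by its brightest probe, 0 of the 10 genes were called by limma (8.06% of all genes), 3 had an unadjusted p under 0.05 (41.7%), 7 differed by less than 0.5 (47.7%) and 6 were negative (49.5%). The genotypes did not overlap for 5 probes, against 72.2% of all probes. Differences are given as Junbfl/flCd4-Cre minus Junbfl/fl on log2 signals scaled to each array's 75th percentile, ± the fitted standard error (n = 2 arrays in each genotype). On the 2 controls that percentile was a processed signal of 151 and 145, and on arrays 1 and 2 labelled Junbfl/flCd4-Cre it was 119 and 101, so an equal processed signal stands for a higher scaled level on the latter.

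**Figure D1:**
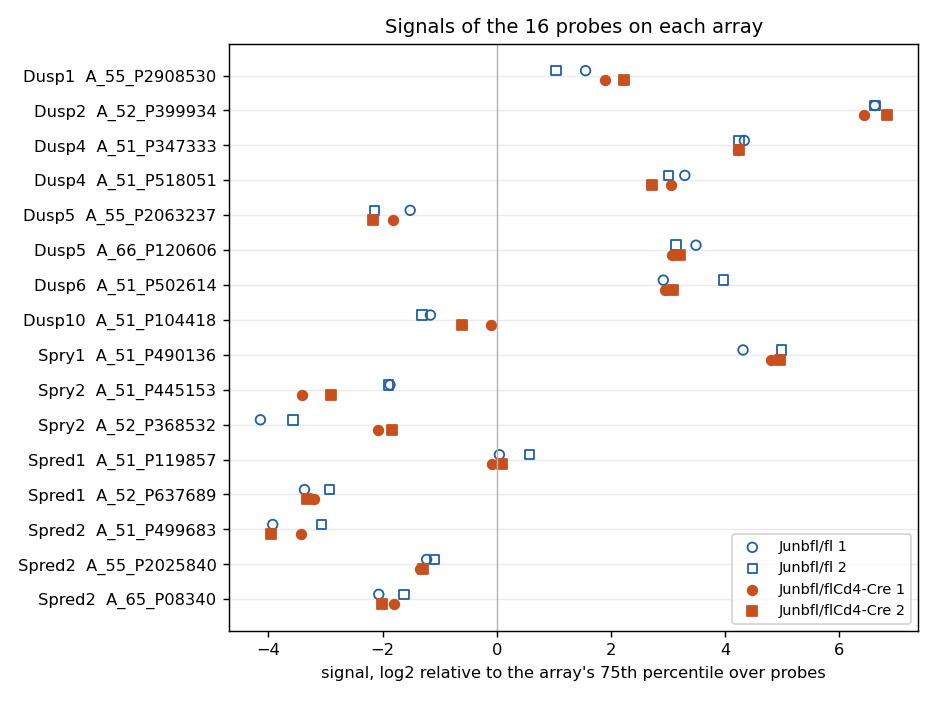
Scaled signals (horizontal axis, log2 relative to the array's 75th percentile) of the 16 probes, 1 row per probe, with open blue symbols for the 2 Junbfl/fl arrays and filled orange symbols for the 2 Junbfl/flCd4-Cre arrays; circles are number 1 and squares number 2. The genotypes separate for 5 probes, those of Dusp1 and Dusp10, both of Spry2 and 1 of Spred2, and overlap for the other 11; levels of different probes should not be set against each other.

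Spry2, a Sprouty protein that restrains RAS-ERK signalling below receptors, was the only one of the 5 genes with several probes whose probes went opposite ways. Spry2 is measured by 2 probes for the same transcript (NM_011897) on the minus strand of chromosome 14. Probe A_51_P445153 lies at 106291901 to 106291960 (mm9), and probe A_52_P368532 lies 516 bases further along the transcript, at 106291385 to 106291444. Neither 60-base probe leaves any of its 3 forward reading frames free of stop codons, so neither lies wholly in coding sequence if the listed letters are the sense strand. The first 30 bases of each are shown because the 2 readings differ, in lower case throughout since no base is singled out:
Spry2 A_51_P445153, chr14:106291931-106291960, minus strand: ccccccttttaacacatatgcaaccaacta
Spry2 A_52_P368532, chr14:106291415-106291444, minus strand: caggaaacctttattgtaagtctctgattt

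Probe A_51_P445153 read 41.4 and 38.9 on the controls against 11.2 and 13.5 on the arrays labelled Junbfl/flCd4-Cre. Probe A_52_P368532 read 8.58 and 12.2 on the controls against 28.1 and 28.2 on the others. Both probes were well above background on all 4 arrays, neither overlapped between genotypes, and their directions were opposite. The further probe rose by 1.89 ± 0.26 (3.70-fold, adjusted p = 0.0399), and the nearer probe gave -1.27 ± 0.23 (2.42-fold lower in signal, adjusted p = 0.0558), which did not pass the threshold but did with median scaling (-1.81, adjusted p = 0.0317). The difference of -3.16 between their log2 differences needs no scaling between arrays, and it too separated the genotypes on every array. By comparison, the largest such gap among the 6 other pairs of probes for 1 gene was 0.21. Both gaps are from processed signals. With quantile normalization the 2 Spry2 probes gave -1.68 and 1.43, and with normexp background before it -0.51 and 0.37. Gaps of other pairs moved too: the 2 Dusp5 probes gave -0.43 and 0.12, then -0.17 and 0.10, in these settings. The size of the Spry2 gap thus depended on the normexp step, which changes the background and also adds an offset of 50. The separate parts of background and offset were not tested.

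The Spry2 call is not firm. The further probe lost it with quantile normalization (1.43, limma adjusted p = 0.0591) and with normexp background and quantile normalization (0.37, adjusted p = 0.0871). No probe at all was called with no filter on dim probes (adjusted p = 0.11 for this one) or without any 1 array (1.60 to 2.18). The direction of the further probe held throughout. Both probes fall in group 2 of 5 when the tested probes are ordered from dim to bright, where the median log2 difference was 0.27, beside -0.35 in the brightest group. Averaging the 2 probes gave 0.31 for Spry2, and the authors' deposited table, which has 1 entry for the accession that both probes carry, lists -0.10 (adjusted p = 0.599) under the name of A_52_P368532.

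**Figure D2:**
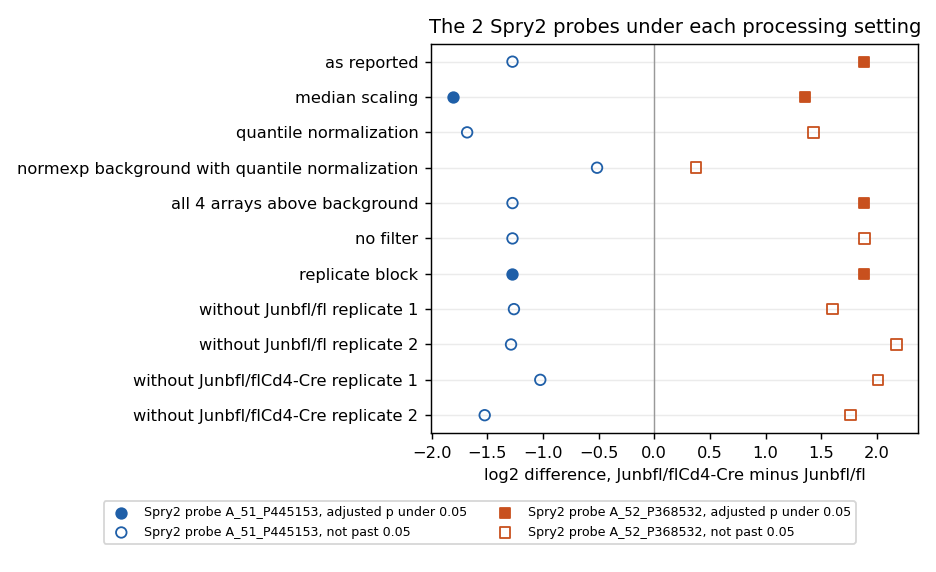
Log2 difference, Junbfl/flCd4-Cre minus Junbfl/fl, of the 2 Spry2 probes under each processing setting (rows), blue circles for A_51_P445153 and orange squares for A_52_P368532; filled symbols have an adjusted p under 0.05. A_51_P445153 stays below 0 and A_52_P368532 above 0 in every row, from -1.81 to -0.51 and from 0.37 to 2.18.

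Spry1, the other Sprouty gene described, has 1 probe on the array. That probe (chromosome 3, 37543194 to 37543253) read 3013 and 4593 on the controls against 3336 and 3139 on the others. The Junbfl/flCd4-Cre arrays lay between the controls in scaled signal, at 4.80 and 4.96 against 4.32 and 4.99, and the log2 difference was 0.23 ± 0.28 (adjusted p = 0.566). Its sign followed the scaling, with 0.56 under quantile normalization and -0.30 under median scaling.

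Among the 6 phosphatases the largest positive differences were those of Dusp1 and Dusp10, which act mainly on the stress kinases JNK and p38. Dusp1 (chromosome 17, 26642624 to 26642683), an immediate early gene, read 445 and 296 on the controls against 447 and 474 on the arrays labelled Junbfl/flCd4-Cre. Its log2 difference was 0.77 ± 0.26 (adjusted p = 0.116), with a 95% interval from 0.06 to 1.49. Both scaled signals labelled Junbfl/flCd4-Cre (1.91 and 2.23) lay above both controls (1.56 and 1.04), but the difference did not pass the threshold here or under any setting tried. In the authors' deposited table Dusp1 has the smallest adjusted p of the members' 13 entries, 0.072, with a log2 difference of 0.99. Dusp10 (chromosome 1, 185898608 to 185898667) read 67.6 and 58.3 on the controls against 110.8 and 66.0 on the others, and gave 0.88 ± 0.24 (adjusted p = 0.0853). After scaling its groups did not overlap either, although in processed signal array 2 labelled Junbfl/flCd4-Cre lay within the range of the controls. Both differences were smaller with the arrays' medians equalized, at 0.24 for Dusp1 and 0.34 for Dusp10, a setting that moved the median over all probes to -0.54.

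Of the phosphatases that act in the nucleus, Dusp2, Dusp4 and Dusp5 differed by less than 0.3 on the log2 scale at every probe, values that moved with the scaling. Dusp2, also known as PAC-1 and found mainly in activated lymphocytes (chromosome 2, 127163930 to 127163989), read 14945 and 14336 on the controls against 10397 and 11576 on the others. After scaling the difference was 0.01 ± 0.20 (adjusted p = 0.964), with a 95% interval from -0.54 to 0.57. The lower processed signals of the Junbfl/flCd4-Cre arrays thus matched their lower 75th percentiles. With median scaling Dusp2 gave -0.52, not called.

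Dusp4, a phosphatase of ERK and JNK, has 2 probes on chromosome 8. The probe for the RefSeq transcript (35882045 to 35882104) read 1486 and 1167 on the controls against 992 and 664 on the others, a difference of -0.27 ± 0.21 (adjusted p = 0.387). The brighter probe, 2761 bases downstream and designed to a cDNA of its own (AK012530), read 3061 and 2745 and then 2232 and 1916, a difference of -0.06 ± 0.15 (adjusted p = 0.793). Neither probe separated the genotypes, and their intervals were -0.85 to 0.32 and -0.47 to 0.36. Median scaling gave -0.80 and -0.59, neither called, and quantile normalization turned the brighter probe to 0.28.

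Dusp5, which is specific for ERK, also has 2 probes, on chromosome 19. The brighter one (53616779 to 53616838) read 1701 and 1275 on the controls against 1003 and 941 on the others, and the dimmer one (53615682 to 53615741) read 52.9 and 32.8, then 33.95 and 22.5. Their log2 differences were nearly equal, at -0.17 ± 0.20 (adjusted p = 0.545) and -0.16 ± 0.29 (adjusted p = 0.70). Control 1 was the highest array for both. Median scaling gave -0.70 and -0.69, neither called. Quantile normalization turned the brighter probe to 0.12 and gave -0.43 for the dimmer one, so the near equality depended on the scaling.

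Dusp6, the cytoplasmic phosphatase of ERK (chromosome 10, 98729985 to 98730044), had the widest spread between controls of the 10 genes. It read 1144 on control 1 and 2277 on control 2, against 923 and 863 on the arrays labelled Junbfl/flCd4-Cre. The log2 difference of -0.42 ± 0.40 (adjusted p = 0.459) rested on control 2, and without that array it was 0.10. The 95% interval, -1.52 to 0.67, leaves room for a change of either sign.

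Spred1 and Spred2, membrane-bound relatives of Sprouty that recruit neurofibromin to RAS, were lower on average by all 5 of their probes, and none was called. With median scaling 2 of the 5 were, the brighter Spred1 probe (-0.83, adjusted p = 0.045) and the Spred2 probe nearest the 3′ end (-0.69, adjusted p = 0.04996). Spred1 (chromosome 2) read 156 and 215 on the controls against 113 and 108 on the others at its brighter probe (117007850 to 117007909), a difference of -0.30 ± 0.24 (adjusted p = 0.395). Its dimmer probe (116997721 to 116997780) read 14.7 and 18.9, then 13.0 and 10.1, a difference of -0.11 ± 0.21 (adjusted p = 0.726). After scaling, the Spred1 groups overlapped for both probes, although in processed signal both controls were the higher arrays.

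Spred2 (chromosome 11) has 3 probes, of which 1 (A_51_P499683) spans 2522 bases of genome with its 60 bases and so crosses an exon junction. That probe read 9.96 and 17.2 on the controls against 11.1 and 6.48 on the others, the last not well above background, and gave -0.20 ± 0.38 (adjusted p = 0.718). The probe nearest the 3′ end of the 3 (19922416 to 19922475) read 64.6 and 67.9, then 47.0 and 41.1. It separated the genotypes after scaling, by a log2 difference of -0.16 ± 0.16 (adjusted p = 0.47) that is about the size of its error. The third probe (19880739 to 19880798), designed to another cDNA (AK032859), read 36.1 and 47.05, then 34.3 and 25.2, and gave -0.06 ± 0.23 (adjusted p = 0.86). At 75th-percentile scaling all 3 pairs of Spred2 probes had the same sign, as had the pairs for Dusp4, Dusp5 and Spred1.

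**Figure D3:**
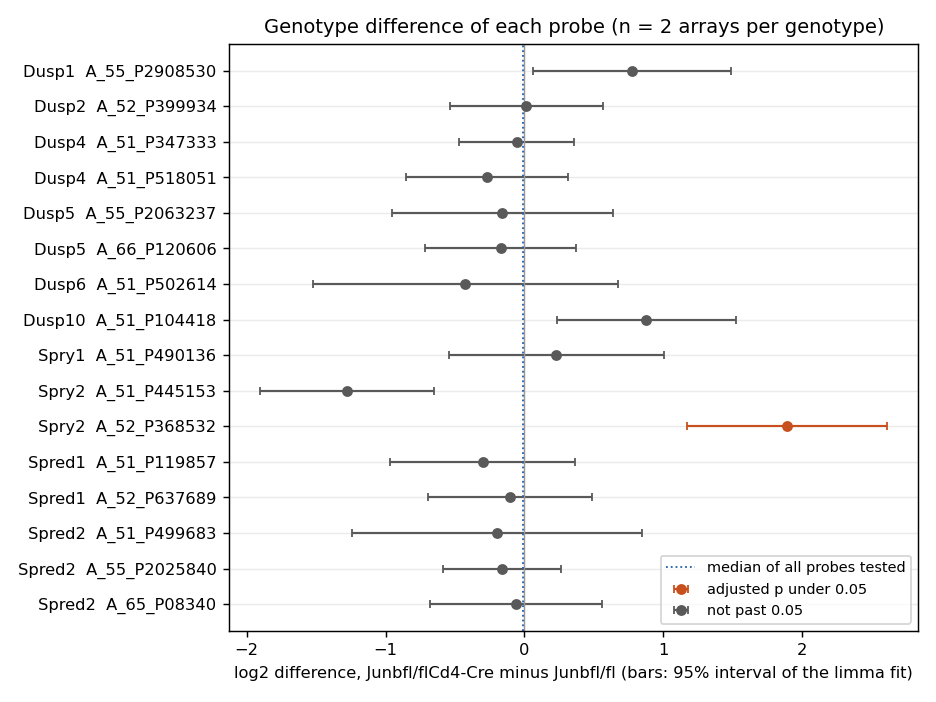
Log2 difference of each probe, Junbfl/flCd4-Cre minus Junbfl/fl, with bars for the 95% interval of the limma fit (n = 2 arrays per genotype) and a dotted line at the median of all probes tested, -0.01. The intervals of 12 probes cross 0; those of Dusp1, Dusp10 and both Spry2 probes do not, and only Spry2 A_52_P368532 (orange) passed an adjusted p of 0.05.

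The authors' deposited table holds 13 entries for these genes, 1 for each accession that the 16 probes carry, with adjusted p-values from 0.072 to 0.92. None passed 0.05, whereas 2.41% of its 26594 entries did.

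Promoter sequence was read because JunB binds the AP-1 site. RefSeq promoter windows (GRCm38.p6, 250 bases before to 50 after the start) were at hand for 9 of the 10 genes, all but Dusp4. The AP-1 motif TGANTCA, which reads alike on both strands, was in 0 of the 9 windows and in 7.81% of all 32851 windows. The related motif TGACGTCA, recognised by CREB and ATF proteins, was in the Dusp1 window only, and in 1.79% of all windows. The CArG box, bound by serum response factor, was in the Dusp5 window only, at 2 adjacent places, and in 1.63% of all windows. The 2 windows with a motif are shown in part, upstream of the start, with the motifs in capitals:
Dusp1, chr17:26508552-26508671, minus strand: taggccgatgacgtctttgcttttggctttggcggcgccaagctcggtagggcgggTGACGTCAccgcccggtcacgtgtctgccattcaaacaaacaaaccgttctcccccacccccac
Dusp5, chr19:53529013-53529132, plus strand: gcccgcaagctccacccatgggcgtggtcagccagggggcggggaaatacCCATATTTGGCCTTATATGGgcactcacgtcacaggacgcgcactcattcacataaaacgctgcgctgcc
The Dusp1 motif begins 143 bases before the start and those of Dusp5 begin 82 and 72 bases before it. A match describes these letters only, and sites outside the windows were not looked at.

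Related genes were measured as 4 lists, each gene by its brightest probe. They are other inhibitors, the RAS-ERK cascade, the JNK and p38 cascades (with regulators of each), and ERK-responsive and immediate early genes. Of all 22475 genes, 6.79% were called higher and 1.27% lower, and the median log2 difference was 0.01. Over all probes the median moved with brightness. It was 0.68 in the dimmest of 5 groups, -0.23 in group 4 and -0.35 in group 5, the brightest. The list medians below were not matched for brightness. Among the other dual-specificity phosphatases, Spry and Spred genes, 12 of 17 passed the filter, 0 were higher and 1 was lower, with a median of -0.30. Dusp14, a small phosphatase known to restrain T cell receptor signalling, fell by 1.27 ± 0.15 (adjusted p = 0.0344), from 526 and 458 to 167 and 138. Its other 2 probes gave -0.63 and 0.40, neither called, so the fall is that of 1 probe. Dusp7, a cytoplasmic ERK phosphatase related to Dusp6, gave -0.87 ± 0.16 (adjusted p = 0.0589).

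The RAS-ERK cascade held 27 measured genes, of which 1 was lower and 26 were not called, with a median of -0.26. Hras, 1 of the RAS switches, fell by 1.24 ± 0.19 (adjusted p = 0.0453), and its dimmer probe gave -0.54. Mapk3, which encodes the kinase ERK1, gave -0.77 ± 0.18 (adjusted p = 0.074). Of the JNK and p38 cascades 20 of 21 genes were measured, with 1 lower and a median of -0.25. Mapkapk3, a kinase activated by p38, fell by 0.96 ± 0.15 (adjusted p = 0.0461), and all 3 of its probes were called, at -0.96, -1.01 and -1.07. Map3k7, which encodes the kinase TAK1, gave -0.86 ± 0.15 (adjusted p = 0.0553).

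Genes of the ERK-responsive and immediate early list went both ways. Of 27 measured from a list of 28, Fos rose by 1.23 ± 0.20 (adjusted p = 0.0477) and Myc fell by 1.27 ± 0.19 (adjusted p = 0.0453), while the other Myc probe gave -0.73 (adjusted p = 0.193), and 25 were not called, with a median of -0.12. The lowest value was that of Hbegf, at -3.47 and not called, named after its value was seen. In all 4 lists 86 genes were measured and 5 called, 1 higher and 4 lower. These 5 are close to the threshold, with limma adjusted p from 0.0344 to 0.0477. Quantile normalization called 0 of the 86, beside 650 of all 33606 probes. Normexp background with quantile normalization called 1 (Dusp14), beside 338 of all probes. Leaving out an array leaves 1 array in a genotype, so those fits cannot grade these genes. Median scaling called 37, all lower, and Fos lost its call there (0.70, adjusted p = 0.0523). With all 4 arrays above background, and with 1 probe per gene, 5 were called again. The authors' log2 values gave 4 of 85, 2 higher and 2 lower. List medians moved with the scaling, from -0.24 over the 86 genes here to -0.02 under quantile normalization and -0.77 under median scaling.

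**Figure D4:**
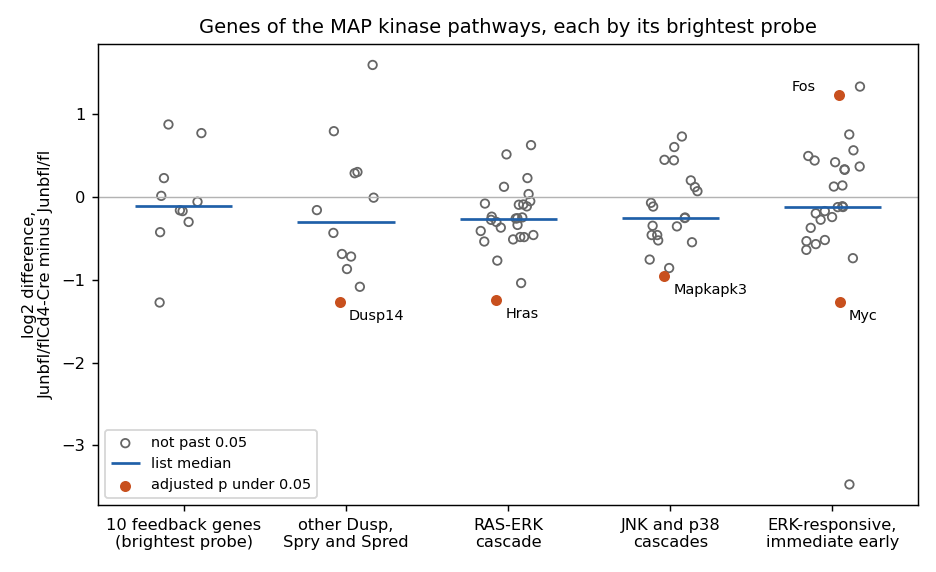
Log2 difference of each gene by its brightest probe, Junbfl/flCd4-Cre minus Junbfl/fl (vertical axis), in the 10 feedback genes and the 4 lists; 1 point per gene, orange where the adjusted p is under 0.05, with a blue line at each list's median. The 5 called genes are named, and the medians lie between -0.30 and -0.11.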

How the data were processed

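Members and gene lists were chosen with earlier results of these data known. Per the file headers, Agilent Feature Extraction 11.5.1.1 reported a mean and a local background intensity for every spot, plus a processed one from which background and spatial trend were removed, with no scaling across arrays; probe positions are on mm9. The authors' deposited table gives log2 signals, a log2 difference, a p-value and an adjusted p-value per accession; no source used here states how they were made. All 4 arrays were on 1 slide in 1 scan, and number 1 of each genotype was in slide row 1 and number 2 in row 2.

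Of 56605 non-control probes, 295 without a spot free of outlier flags on every array were dropped (108 to 215 flagged spots per array). Spots were averaged per probe. No non-control spot was saturated, and 59.3% to 66.3% of spots were well above background; the number of arrays limits the precision. The log2 processed signal minus each array's 75th percentile was tested where both arrays of at least 1 genotype were well above background. The test was limma 3.58.1 (R 4.3.3, lmFit and eBayes, no covariate), run also on simulated data. The simulated shifts were larger than any member's difference and the simulated arrays varied independently. That run therefore does not cover differences of the size reported here. Groups of 2 cannot reach 0.05 in a permutation test. Named were the 10 members, Junb and, per list, up to 6 called genes or otherwise the 2 with the smallest p. Symbols of list genes were updated through a RefSeq table (GRCm38.p6, names only): 32831 probes matched by accession, 10168 by symbol and 517 by synonym, and 12794 kept the file's name. Python 3.11.15, pandas 2.3.3 and matplotlib 3.10.9 made tables and figures.

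Alternatives were median scaling, quantile normalization, normexp background (offset 50) with quantile normalization, 2 filters, 1 probe or the mean of probes per gene, the replicate block, leaving out each array, and the authors' log2 values.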

Additional observations from a re-analysis of the deposited data

How the results depend on the processing

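Of all probes 2277 were called here (81.6% higher), and 12972 with median scaling (18.5% higher), 650 with quantile normalization (72.8% higher), 338 with normexp background and quantile normalization, 1377 with all 4 arrays above background, 641 from the authors' log2 values and 0 with no filter (12028 at an unadjusted p under 0.05). Without any 1 array limma called 0, with 7315 to 11361 at an unadjusted p under 0.05. Median scaling moved the median over all probes from -0.01 to -0.54, and no filter to 0.22. Of the members' probes 1 was called here, 4 with median scaling (1 higher, 3 lower), and 0 with quantile normalization, normexp background and quantile normalization, no filter, 1 probe per gene, the mean of probes, the authors' log2 values and without any 1 array (limma; 2 to 5 at an unadjusted p under 0.05 in these). Of the 4 pathway lists 5 genes were called here, 37 with median scaling (all lower), 0 with quantile normalization, 1 with normexp background and quantile normalization, 0 with no filter, 2 with the mean of probes and 0 without any 1 array (limma; at an unadjusted p under 0.05, 21, 18 and 14 to 18 where 0 were called).

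The Spry2 probe A_52_P368532 gave 1.43 with quantile normalization, 0.37 with normexp background and quantile normalization, 1.89 with no filter and 1.60 to 2.18 without any 1 array, past the threshold in none of these. The cause of these losses was not tested, beyond fewer arrays or more probes entering the fit.

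Signs turned as follows. With median scaling Dusp2 gave -0.52 and Spry1 -0.30. With quantile normalization, and with normexp background before it, Dusp4 A_51_P347333 gave 0.28 and 0.27, and Dusp5 A_66_P120606 0.12 and 0.10; the authors' log2 values gave 0.26 and 0.13. The mean of probes gave 0.31 for Spry2. Leaving out 1 array turned Dusp2 (-0.18 to 0.21), Dusp5 A_55_P2063237 (-0.47 to 0.15) and A_66_P120606 (-0.35 to 0.0059), Dusp6 (-0.95 to 0.10), Spry1 (-0.11 to 0.56), Spred1 A_52_P637689 (-0.32 to 0.11), Spred2 A_51_P499683 (-0.62 to 0.23) and A_65_P08340 (-0.28 to 0.16), and Junb A_51_P159194 (-2.85 to 0.65); the cause was not tested. A block for slide or scan could not be fitted, since all arrays share 1 slide and 1 scan.

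Numbers in the sample titles coincide with slide rows, and no label pairs them; same-numbered arrays deviated together (correlation 0.45 across probes). With the replicate block 8522 of all probes, 3 members' probes (both of Spry2 and Dusp10, adjusted p = 0.0431) and 12 genes of the lists were called.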
